A study of Mus musculus with 8 samples.

Results

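The genes described here encode the enzymes that add or remove methyl groups on histone lysines: methyltransferases (writers) of the Kmt, Setd, Nsd, Ehmt, Suv39h and Ash1l names and demethylases (erasers) of the Kdm name. They were taken by symbol from 2 lists of m6A peaks, 1 for control and 1 for PTC-treated mouse primary T cells, and every peak of every matching gene was kept. The symbols matched 43 of the 12413 genes with a peak in either list, 26 writers and 17 erasers. Of the 44 protein-coding genes of these names in the GENCODE M21 annotation, Kdm8 alone had no peak.

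N6-methyladenosine (m6A), a methylated adenosine of RNA, was mapped by immunoprecipitating methylated RNA and sequencing it beside input RNA. Control cells and cells given PTC for 24 h (an agent the labels do not describe further) each had 2 immunoprecipitated and 2 input samples (8 samples in 4 groups). The labels give no strain, sex, age, T cell subset or genotype, and do not say whether the samples of a group are separate cultures or animals. The authors deposited 1 peak list per condition, with 29586 control peaks in 11390 genes and 23368 PTC peaks in 10859 genes, so no difference below has a replicate check, and none was tested. Depth is unknown, and fewer cells of a type, less RNA per cell and less methylation cannot be told apart in a peak list. All 8 T cell markers looked up (Cd3d, Cd3e, Cd3g, Cd4, Cd8a, Cd8b1, Trac and Lck) had peaks in both lists. So did the B cell markers Cd79b and Ms4a1, but not Cd79a, and 3 of 4 myeloid markers (Lyz2, Cd14 and Csf1r, but not Itgam), and the part of such cells in the results was not tested.

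Most writers carry a catalytic SET domain and transfer methyl groups from S-adenosylmethionine to particular lysines of histone H3 or H4. Erasers are either flavin-dependent amine oxidases or oxygen- and 2-oxoglutarate-dependent Jumonji enzymes. Methylation of H3K4 and H3K36 goes with active genes and that of H3K9 with silent chromatin, and both writers and erasers shape the programs of T cells. m6A is deposited by the METTL3 and METTL14 complex and is known to gather in long internal exons, around stop codons and in 3' UTRs, often at the sequence GGACT.

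Nearly all genes on both sides of the system carried m6A peaks in both conditions. Peaks were listed in both conditions for 41 of the 43 genes, 25 writers and 16 erasers, against 79.2% of all listed genes. Fewer peaks were listed in PTC for 31 of the 43 (45.5% of all listed genes) and more for 6 (20.9% of all listed genes). These genes have a median of 5 control peaks against 2 for all genes, and the shares were not matched for this. The writers held 164 control and 122 PTC peaks and the erasers 90 and 67, so the PTC list held 0.744 times as many peaks as the control list on either side, against 0.790 for all listed genes. Long internal exons had the highest share of bases under peaks of any exon position, and there the 2 lists held similar shares. Of the control peaks without a PTC counterpart that could be placed on a main transcript, most lay in short internal exons, for writers and erasers alike.

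The sites below show where the methylation consensus falls in these transcripts. GGACT, read on the transcript strand, occurred in 11.6% of all control and 12.9% of all PTC windows reaching 50 nt to either side of a peak's midpoint, and in 18.1% (46 of 254, exact Clopper-Pearson 95% interval 13.6 to 23.4%) and 18.5% (35 of 189, 13.3 to 24.8%) of the windows of these genes. In PTC 14.8% of writer windows (8.98 to 22.3%) and 25.4% of eraser windows (15.5 to 37.5%) held GGACT, and these intervals overlap. In control 18.3% of writer and 17.8% of eraser windows held it. Sites of a wide peak that lie farther from its midpoint are not counted. Intervals given here cover counting error only, and peaks of 1 gene share a transcript. The first lines are sites inside the strongest control and PTC peak of each gene, chosen as examples of long internal exons, of a shorter internal exon (Kdm5a) and of last exons. They are printed 5′ to 3′ from the GENCODE M21 transcripts, with 12 nt on each side and the GGACT in capitals.
Setd2 exon 3, first site: aagattctgtacGGACTtcttccagtcaa
Setd2 exon 3, second site: taaatttgatcgGGACTgtaaaactgaga
Nsd1 exon 5: tatgccatttgaGGACTgtacaaacgatc
Kmt2a exon 27: acaacttcacgcGGACTgtgatttcctcg
Ash1l exon 3: attggttagcaaGGACTtgatcaggaaac
Setdb2 exon 6: atatctgctccaGGACTtgtctaatggaa
Suv39h1 exon 3: gcagttccacaaGGACTtagaaagagagc
Kmt5a exon 8: ggtttccaaggtGGACTtgaacagatggc
Kdm5d exon 23: tcattgctggtaGGACTacagagactgtc
Kdm5a exon 24: ccaccaaacaatGGACTatgatgatgaag
Kdm5b exon 27: tcatgtaattcaGGACTccaataaagaag
Kdm4b exon 23: gccagcacccctGGACTacagtgactcca
Kdm1a exon 19: catcagctactgGGACTcctagtttgaca
Kdm6b exon 11: cagtggacagtgGGACTgagccacagccg
On GRCm38, the Setd2 sites lie on the plus strand at chr9:110548095-110548123 and chr9:110548585-110548613, the Nsd1 site at chr13:55245643-55245671 (plus) and the Kmt2a site at chr9:44820958-44820986 (minus). The Ash1l site is at chr3:88981550-88981578 (plus), the Setdb2 site at chr14:59419441-59419469 (minus) and that of Suv39h1 at chrX:8071127-8071155 (minus), all 7 of these in coding sequence. The Kmt5a site (chr5:124460905-124460933, plus) lies in the 3' UTR. Among the erasers, the sites of Kdm5d (chrY:941563-941591, plus), Kdm5a (chr6:120427794-120427822, plus) and Kdm6b (chr11:69404584-69404612, minus) are coding. Those of Kdm5b (chr1:134631395-134631423, plus), Kdm4b (chr17:56401809-56401837, plus) and Kdm1a (chr4:136550723-136550751, minus) are in 3' UTRs, with the methylatable A 35, 95 and 111 nt past the stop codon.

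The consensus alone did not mark a peak. A second set shows GGACT in the same context of a long coding exon but with no peak base in either list, in Kmt2d exon 11 (1434 nt, 5 sites) and Setd1b exon 12 (1260 nt, 4 sites).
Kmt2d exon 11, first site: tcctccacctgaGGACTctcctctgtccc
Kmt2d exon 11, the third site: cccaccacccgaGGACTctcctgcctcac
Setd1b exon 12, first site: ttgagcagtgggGGACTtccacggacacc
Setd1b exon 12, the fourth site: ggacaatggcatGGACTggctgaatgaca
The Kmt2d sites are on the minus strand at chr15:98863718-98863746 and chr15:98863502-98863530, and the latter's 29 letters recur at chr15:98863448-98863476. The Setd1b sites are on the plus strand at chr5:123160208-123160236 and chr5:123161080-123161108. Over the main transcripts of the 41 genes in both lists, GGACT stood at 1.46 sites per kb under control peaks and 1.05 outside them, and at 1.67 and 1.00 for PTC peaks. In writers the PTC densities were 1.54 and 1.10 and in erasers 1.99 and 0.849, and over 8200 coding genes they were 1.35 and 0.981. The looser consensus DRACH (a purine before AC, no C ahead of it and no G after it) was found in 87.4% of the control and 91.0% of the PTC windows, against 86.9% and 88.7% of all windows.

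The H3K4 writers held the most peaks of any class, 72 control and 59 PTC, and covered 40430 and 31728 nt. Kmt2c and Kmt2d, which mono-methylate H3K4 at enhancers, had 16 and 15 control peaks and 12 and 10 PTC peaks. Bases under Kmt2d peaks numbered 8257 in control and 5882 in PTC, and those of Kmt2c 9066 and 7594. The strongest Kmt2d peaks reached a −log10 FDR of 75.3 and 90.1 and those of Kmt2c 66.2 and 86.3. Kmt2b, a promoter H3K4 methyltransferase, had 8 control and 4 PTC peaks on 2705 and 1952 nt, with a −log10 FDR of up to 36 and 46.4. Setd1b had 7 and 5, and Setd1a, its paralog in H3K4 trimethylation, 4 and 5 on 2219 and 1503 nt. Of the Setd1a peaks 3 of 4 in control and 4 of 5 in PTC coincided with peaks that the list assigns to Gm49388, a gene model on the same strand, so the gene of origin is uncertain there.

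Kmt2a (MLL1), which maintains Hox gene expression by H3K4 methylation, was the 1 gene of 43 with at least 3 more PTC peaks (8 control, 11 PTC; 2.33%, against 0.886% of all listed genes). The bases covered went the other way, from 10021 nt in control to 8885 nt in PTC. One control peak of 4198 nt along exon 27 (chr9:44818346-44822710, −log10 of the false discovery rate, FDR, 64.9) was overlapped by 2 PTC peaks of 2849 and 1020 nt (143 and 29.3). In the 3' UTR 4 control peaks faced 6 PTC peaks. Of the 11 PTC peaks 9 overlapped a control peak, and the other 2 were weak peaks in the 3' UTR (−log10 FDR 3.54) and in exon 19 (2.86). Kmt2e, an H3K4 reader of the same family whose own methyltransferase activity is not settled, had 9 control and 10 PTC peaks on 4079 and 3749 nt. Setd7, a mono-methyltransferase of H3K4 and of other proteins, went from 5 control peaks on 1623 nt to 2 PTC peaks on 302 nt (ratio 0.186, the lowest of the 41 genes), all of them in its 3' UTR. The strongest Setd7 control peak (chr3:51517955-51518284, minus strand, −log10 FDR 14.6, fold enrichment 3.40) had no PTC counterpart, and its PTC peaks reached 4.19.

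By −log10 FDR, the strongest peak of the family in either list belonged to an H3K36 writer. Nsd3, a dimethyltransferase, reached a −log10 FDR of 143 (control) and 296 (PTC), at percentiles 99.3 and 99.6 of the peaks. Nsd1, which sets H3K36 dimethylation between genes, reached 113 and 127, and Setd2, which trimethylates H3K36 in transcribed genes, 83.5 and 124. The Nsd3 peak had a fold enrichment of only 3.45 in control and 3.18 in PTC, against medians of 3.65 and 3.66 over all peaks. A gene's strongest peak is the one with the highest −log10 FDR. Values of fold and FDR rank peaks within a list and are not compared between lists. Setd2 had 5 control and 6 PTC peaks on 6206 and 5847 nt, and 92.3% of its control bases were also PTC bases. Nsd1 had 10 and 6 peaks on 7986 and 6212 nt, Nsd2, whose gain is known from lymphoid cancers, 13 and 8 (−log10 FDR up to 44.4 and 34.1), and Nsd3 13 and 8. Peaks of Nsd2 covered 3907 nt in control and 1984 nt in PTC, with 1594 nt in common, and those of Nsd3 5527 and 3963 nt, with 3605 nt in common. In Ash1l, which opposes Polycomb by H3K36 methylation, 8 control and 6 PTC peaks covered 7201 and 5221 nt, and its last exon went from 918 covered nt to 0.

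The 6 H3K9 writers held 23 control and 14 PTC peaks, and each had fewer in PTC, as had 45.5% of all listed genes. Suv39h2, which trimethylates H3K9 in heterochromatin, held 4 control peaks on 1054 nt and 1 PTC peak on 331 nt, the latter in exon 3 (−log10 FDR up to 4.77 and 8.59). Its paralog Suv39h1 had 4 and 3, and its exon 3 peak (−log10 FDR 29.8 in control, 20.5 in PTC) overlapped a peak assigned to the antisense gene Gm14820 with nearly the same values (30.3 and 20.7). Setdb1, which silences retroelements, had 4 and 3 peaks, Setdb2 5 and 4, and Ehmt1 (GLP) 4 and 2. Ehmt2 (G9a), its partner in H3K9 dimethylation, was the 1 gene of 41 (2.44%, against 5.30% of all genes in both lists) whose peaks did not overlap at all. Its 2 weak control peaks had their midpoints in exons 17 and 23 of 27 (−log10 FDR 3.48 and 3.79) and its 1 weak PTC peak in exon 7 (4.20), on 572 and 331 nt in all.

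The H4K20 writers held 7 control and 8 PTC peaks. Kmt5c, which adds the further methyl groups to H4K20, was listed in PTC only, with 1 peak of 210 nt in its last exon (chr7:4746648-4746857, plus strand, −log10 FDR 4.05, fold 3.63). Such genes made up 8.24% of all listed genes, and Kmt5c was 1 of 43 here. Kmt5a, the H4K20 monomethyltransferase, had 2 control and 3 PTC peaks on 961 and 1142 nt. Kmt5b, close kin of Kmt5c, had 5 and 4 peaks on 4260 and 3750 nt, led by a 3' UTR peak of 2968 nt in control and 2908 nt in PTC (chr19:3814167-3817134, plus strand) in an exon outside its main transcript, with −log10 FDR of 78.0 and 104.

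The 4 remaining Setd genes have other or unsettled substrates. Setd3, a histidine methyltransferase of actin, carried 1 peak of 1225 nt in each list, with 1195 nt shared, and Setd6, which methylates non-histone proteins, 2 control peaks and 1 PTC peak. Setd4 had 1 peak in each list on 420 and 479 nt. Setd5, of unsettled activity, went from 9 peaks on 4084 nt to 4 on 2252 nt. Its stop codon region stayed covered (control 1560 nt, PTC 1500 nt, −log10 FDR 67.6 and 102). A 690 nt control peak around exon 14 (chr6:113119445-113121707, −log10 FDR 23.1) had no PTC partner and was the strongest such peak of the family.

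**Figure D1:**
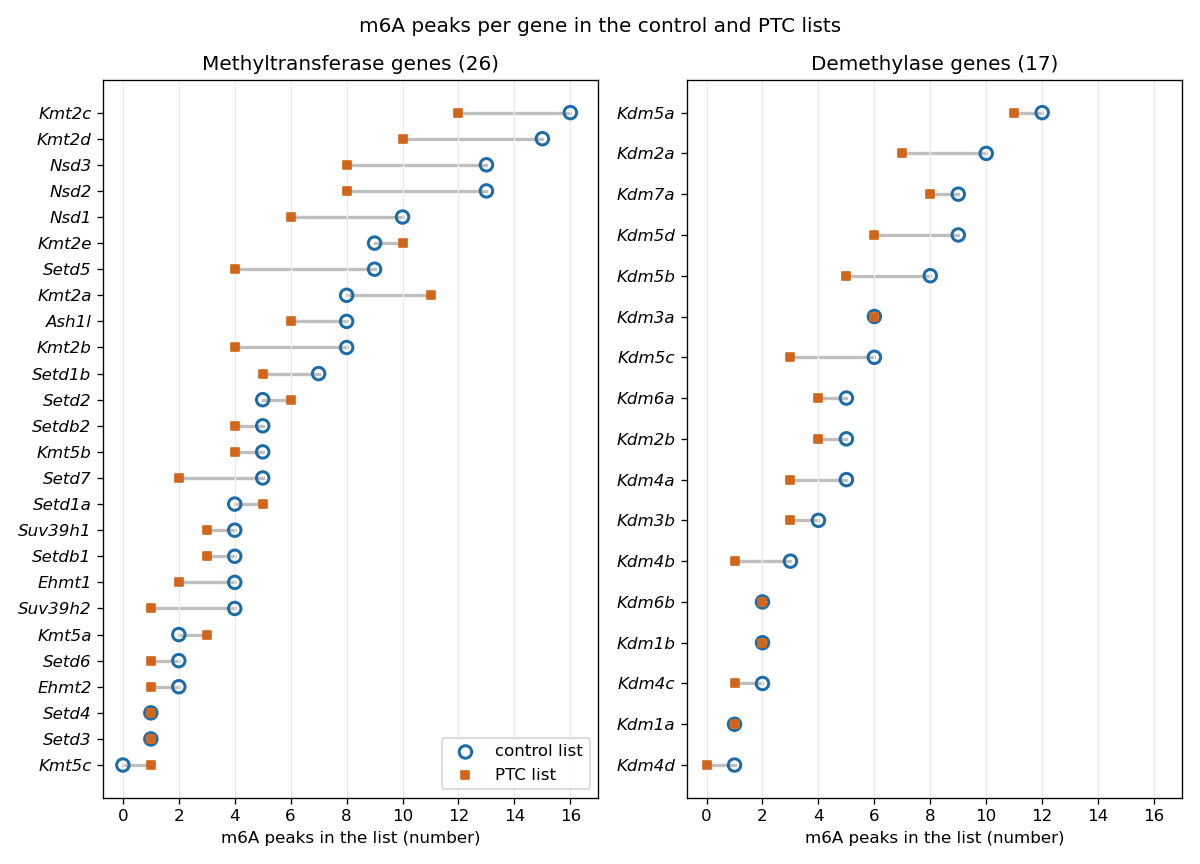
m6A peaks per gene (x axis, number) in the control list (open circles) and the PTC list (filled squares) for the 26 methyltransferase and 17 demethylase genes, with a grey line between the 2 values of a gene. The square lies left of the circle for 31 genes, on it for 6 and right of it for 6, all 6 of them methyltransferase genes, with Kmt2a the widest step (8 and 11).

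Among the erasers, the H3K4 demethylases of the Kdm5 group held 35 control and 25 PTC peaks. Kdm5a (12 and 11 on 5410 and 3971 nt, −log10 FDR up to 59.0 and 88.4) had the most peaks of any eraser, and Kdm5b had 8 and 5 on 2347 and 1685 nt (−log10 FDR up to 31.2 and 57.5). The X-linked Kdm5c had 6 and 3 on 2706 and 1833 nt (38.2 and 61.5), and its Y-linked copy Kdm5d 9 and 6 (16.6 and 29.3). Kdm5c and Kdm5d share 76.8% of their aligned coding bases, and whether reads were divided between them was not tested. Kdm5d had 3 fewer PTC peaks but nearly the same cover, 1955 nt against 2077 nt. The amine oxidases Kdm1a (LSD1) and Kdm1b (LSD2) had 1 and 2 peaks in either list, all with midpoints in the 3' UTR. Kdm1b peaks also covered 164 nt of short internal exons in PTC, against 0 in control. Kdm1a was the 1 eraser with wider cover in PTC, 390 nt against 330 nt.

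Kdm2a, an H3K36 demethylase that binds CpG islands, had 10 control and 7 PTC peaks on 3965 and 2914 nt and the strongest eraser peak in either list, across the stop codon (−log10 FDR 102 and 148, 600 and 540 nt). Kdm2b, which brings a Polycomb complex to CpG islands, had 5 and 4. Of the H3K9 demethylases, Kdm3a had 6 and 6 peaks on 1682 and 1652 nt, of which 4 in either list overlapped the other list, and Kdm3b had 4 and 3 on 3213 and 2912 nt, with leading −log10 FDR of 57.5 and 66.8 in control and 119 and 117 in PTC. The Kdm4 genes, which act on H3K9 and H3K36, held 11 control and 5 PTC peaks in all. Kdm4a had 5 and 3 on 1952 and 1112 nt, led by a 3' UTR peak with a −log10 FDR of 85.6 in control and 69.0 in PTC, Kdm4b 3 and 1 and Kdm4c 2 and 1. Kdm4d was listed in control only, by 1 peak of 120 nt (chr9:14500214-14500333, minus strand, 5' UTR, −log10 FDR 2.11). Genes in the control list only made up 12.5% of all listed genes, against this 1 of 43. Of the H3K27 demethylases Kdm6a (UTX) had 5 and 4 peaks and Kdm6b (JMJD3) 2 and 2, and Kdm7a, which also acts on H3K9, had 9 and 8 on 3360 and 2523 nt (−log10 FDR up to 21.3 and 48.1).

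Of the 43 genes 13 (30.2%) had at least 3 fewer PTC peaks, 9 of 26 writers (34.6%) and 4 of 17 erasers (23.5%), against 7.43% of all listed genes. The writers were Kmt2b, Kmt2c, Kmt2d, Nsd1, Nsd2, Nsd3, Setd5, Setd7 and Suv39h2 and the erasers Kdm2a, Kdm5b, Kdm5c and Kdm5d. A gene with few peaks cannot lose 3, and these genes have a median of 5 control peaks against 2 for all genes. Among genes with 8 or more peaks over both lists, the same drop was found for 11 of 25 (44.0%), against 27% of 1783 genes. A rise of 3 or more in that group was found for Kmt2a alone (4.00%, against 2.30%).

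Covered bases gave a similar order with less dependence on how a peak was divided. They numbered 126233 nt in control and 97168 nt in PTC (ratio 0.770 for all 43 genes, 0.770 for writers, 0.768 for erasers and 0.806 over all listed genes). Cover was lower in PTC for 37 of the 41 genes in both lists (90.2%), against 68.0% of all genes in both lists, higher for Kdm1a, Kmt5a and Setd4, and equal for Setd3. Main transcripts of the 43 genes have a median of 6363 nt, against 2749 nt over all listed genes. These shares were not matched for transcript length or peak number. The median ratio per gene was 0.735 in writers, 0.763 in erasers and 0.847 over all genes. The control list is longer. When only its strongest peaks were kept, to the length of the PTC list, the PTC list held 0.824 times the control peaks in writers and 0.931 times in erasers, against 1.00 overall. With peaks reaching a −log10 FDR of 5 these ratios were 0.736, 0.789 and 0.885, and with a fold enrichment of at least 4 they were 0.923, 0.784 and 0.792. The order of writers and erasers therefore turned with the filter.

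**Figure D2:**
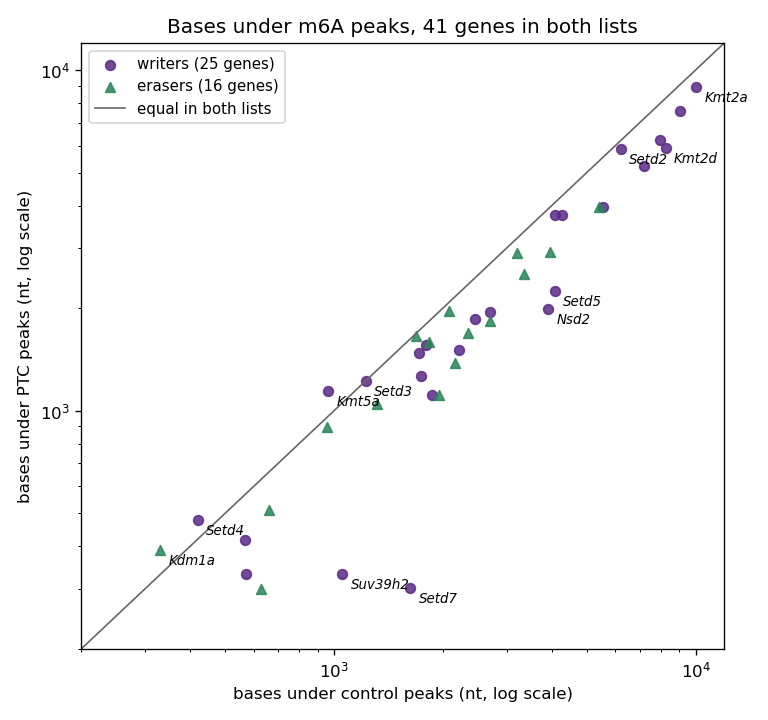
Bases under control peaks (x axis, nt, log scale) and under PTC peaks (y axis, nt, log scale) for the 25 writers (circles) and 16 erasers (triangles) in both lists, with the line of equal values. Of these, 37 genes lie under the line, Kdm1a, Kmt5a and Setd4 above it and Setd3 on it, and Setd7 lies farthest below (1623 and 302 nt).

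Most PTC peaks were control peaks as well. In these genes 86.8% of PTC peaks (164 of 189, interval 81.1 to 91.3%) overlapped a control peak by at least 1 nt, and 62.6% of control peaks (159 of 254, 56.3 to 68.6%) overlapped a PTC peak. For all listed genes these shares were 78.8% and 60.2%. Writers (88.5% and 62.8%) and erasers (83.6% and 62.2%) differed by less than the width of their intervals. The 95 control peaks with no PTC partner were weaker and narrower than the 159 with one, with a median −log10 FDR of 3.93 against 21.3 and a median width of 181 against 451 nt, and 33 of them reached a −log10 FDR of 5. The same order held over all listed genes, with 3.32 against 10.1 and 180 against 390 nt. There, 2742 of 11789 control peaks without a partner reached a −log10 FDR of 5. Of the 25 PTC peaks of these genes with no control partner 2 reached it, in the 5' UTRs of Kdm2a (7.02) and Kdm5d (6.10). Over all listed genes it was 875 of 4953.

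The 2 kinds of control peak lay in different places. The main transcript of each of the 43 genes was divided into first exon, last exon, long internal exons (400 nt or more) and short internal exons. Of the control peaks without a partner, 61.3% (46 of 75 placed on a main transcript) had their midpoint in a short internal exon, against 20% (28 of 140) of those with a partner. In long internal exons the shares were 5.33% and 40.0%. The short internal shares were 60% and 16.9% in writers and 63.3% and 25.5% in erasers. Over all listed genes it was 36.1% and 13.3%, so the direction was not particular to histone methylation genes.

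Measured over bases, short internal exons of the 41 genes in both lists were 21.6% covered in control and 10.0% in PTC. Long internal exons were 75.8% and 72.2% covered, last exons 37.5% and 28.0% and first exons 10.6% and 10.5%. Writers had 23.1% and 9.62% of short internal bases under peaks and erasers 19.5% and 10.5%, against 14.6% and 7.82% over 8200 genes. For long internal exons the values were 75.9% and 72.3% in writers, 74.9% and 71.7% in erasers and 66.3% and 63.2% over all genes. For last exons they were 39.1% and 26.4% in writers, 35.2% and 30.3% in erasers and 39.7% and 34.2% over all genes. First exons of all genes were 22.1% and 17.0% covered. In single genes, short internal cover was lower in PTC in 32 of 41, higher in 5 and equal in 4. No such count is given for all genes, whose summed short internal cover was also lower in PTC, so it is not read as particular to these genes. Kmt2d went from 2637 to 721 nt of 6305, Kmt2c from 1737 to 502 nt of 7217, Setd5 from 1473 to 412 nt of 3362 and Kdm5c from 1061 to 374 nt of 3558. Kdm3a (581 and 584 nt of 3409) and Nsd3 (390 and 431 nt of 2878) did not follow. In the same genes the long internal exons changed little, from 5230 to 4682 nt of 10406 in Kmt2d, from 6037 to 5949 nt of 7244 in Kmt2c and not at all in Setd5 (442 of 471 nt). With the control list shortened to equal length, short internal cover was still 20.3% in control and 10.0% in PTC. Counting only peaks with a fold enrichment of at least 4, it was 6.51% and 3.31%, while long internal cover turned direction, with 44.7% in control and 48.4% in PTC. At that fold the long internal exons of all genes were 51.0% and 49.3% covered, above those of these genes.

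**Figure D3:**
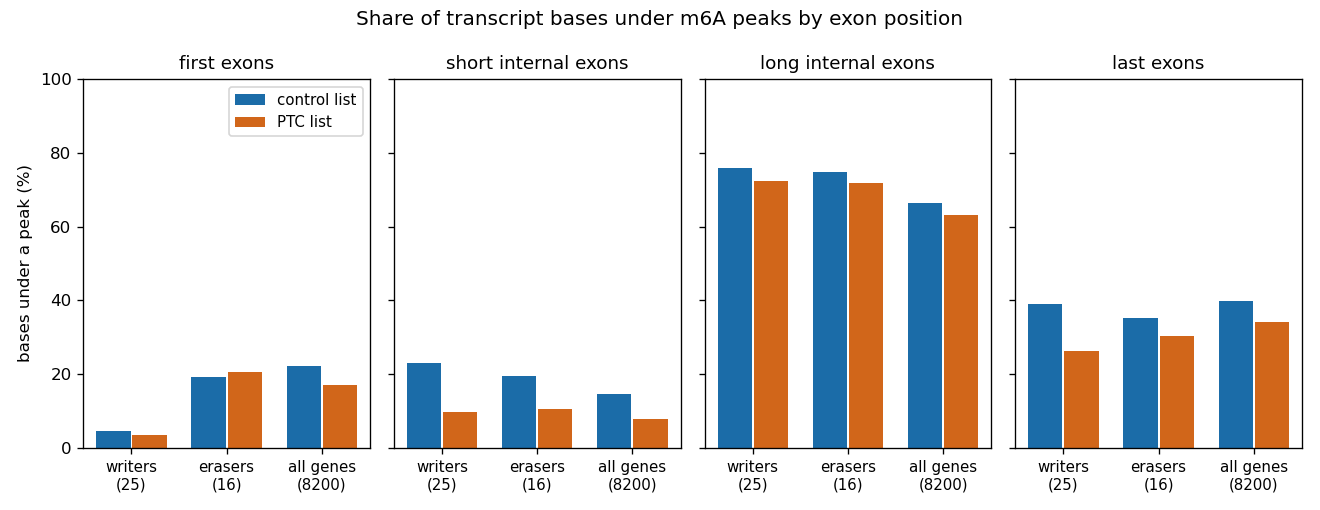
Share of transcript bases under a peak (y axis, percent) in the control list and the PTC list, by exon position, summed over the main transcripts of 25 writers, 16 erasers and 8200 coding genes with peaks in both lists. Bars are single sums with no replicate error. Short internal exons show the widest step between the lists (writers 23.1% and 9.62%), with last exons next (writers 39.1% and 26.4%). Long internal exons show the highest cover (writers 75.9% and 72.3%).

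Writers and erasers differ in how much of the well-covered exon type they have. Long internal exons made up 31.0% of the writers' main transcripts, 9.69% of the erasers' and 7.28% of those of all genes. They held 54.0% of covered bases in control and 66.2% in PTC for writers, 23.6% and 28.5% for erasers and 15.0% and 17.3% for all genes. Peak midpoints in coding sequence followed the same order, with 58.5% of control and 61.5% of PTC peaks in writers, 54.4% and 46.3% in erasers, and 42.2% and 41.0% over all coding genes. Midpoints within 200 nt of the stop codon were fewer than in all genes, at 11.6% and 13.3% against 17.1% and 22.5%.

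There were 56 long internal exons, 43 in 19 writers and 13 in 10 erasers. Peaks touched 54 of them in control and 52 in PTC, all 52 being among the 54, and the median exon was 87.3% and 84.3% covered. Setd2 exon 3 (4286 nt) was 99.1% and 97.0% covered, and its shorter exon 12 (663 nt) in full in both. Nsd1 exon 5 (2560 nt) was 98.9% and 100% covered. For Kmt2a exon 27 (4237 nt) the values were 98.5% and 91.3%, and for Ash1l exon 3 (4558 nt) 93.5% and 83.6%. Cover was lower in PTC in 28 exons, higher in 16 and equal in 12. No such count is given for the long internal exons of all genes, whose summed cover was also lower in PTC. The widest step up was in Setd4 exon 7 (430 nt, 9.30% and 57.9%), where the 1 control peak and the 1 PTC peak of the gene shared 270 nt.

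**Figure D4:**
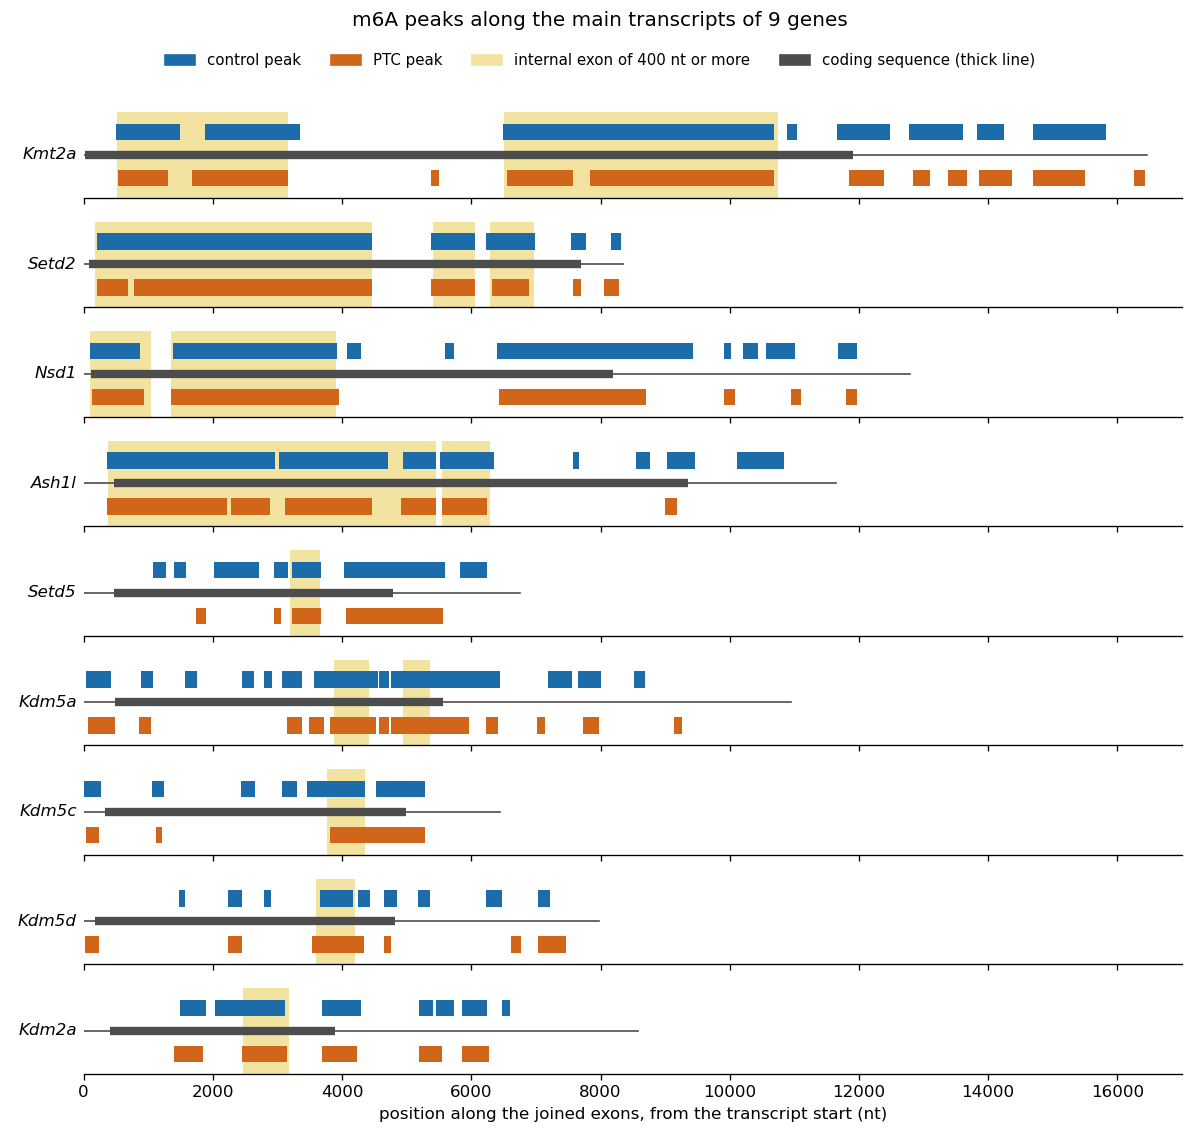
Control peaks (upper bars) and PTC peaks (lower bars) along the joined exons of the main transcripts of 9 genes (x axis, nt from the transcript start), with the coding sequence as a thick line and internal exons of 400 nt or more shaded. Shaded exons are filled in both lists (Setd2 exon 3 at 99.1% and 97.0%), while isolated control bars outside them, as in Setd5 and Kdm5c, often have no PTC bar beneath.

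Some paralogs had well-covered long exons at the same aligned place. Peaks touched 52 of the 56 long internal exons in both lists, so most pairs of long exons, aligned or not, would both carry peaks. Pairs that do not align were not compared. Exon 23 of Kdm5a, Kdm5b, Kdm5c and Kdm5d (552, 486, 582 and 597 nt) aligned in all 4 coding sequences. Their bases were 47.3 to 76.5% identical pair by pair. It was 100%, 86.6%, 100% and 85.6% covered in control and 100%, 80.5%, 91.9% and 100% in PTC. Aligned long exons of the Nsd genes (Nsd1 exon 5, Nsd2 exon 6 and Nsd3 exon 6) were 98.9%, 87.0% and 100% covered in control and 100%, 72.3% and 87.2% in PTC. Other pairs parted. Kmt2a exon 27 was 98.5% and 91.3% covered, and the aligned exon 28 of Kmt2b 48.5% and 60%. Kmt2c exon 36 was 90.6% and 88.6% covered and the aligned exon 32 of Kmt2d 10.4% and 0%. Kdm6a exon 17 was 88.1% and 77.0% covered and Kdm6b exon 11 19.4% and 16.7%.

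In these 3 pairs, picked for their difference in cover, the less covered exon had more G and C: 61.9% in Kmt2b against 52.1% in Kmt2a, 63.3% in Kmt2d against 49.4% in Kmt2c, and 63.8% in Kdm6b against 48.0% in Kdm6a. The order was not general, since Kmt2d exon 35 (59.5% GC) was 77.2% covered in both lists and the aligned Kmt2c exon 38 (45.2% GC) 64.3% and 62.6%. Likewise Setd1b exon 7 (64.2% GC) was 40.0% and 57.8% covered and Setd1a exon 8 (60% GC) 21.3% and 0%. In all, 6 long exons were under 50% covered in both lists, and their GC content was 60 to 66.4% (Kmt2d exons 11, 12 and 32, Setd1a exon 8, Setd1b exon 12 and Kdm6b exon 11). Setd1a exon 8 only rounds to 60% and is counted below 60% in the bands that follow. The 17 exons at least 90% covered in both had 40.6 to 59.3%, with a median of 47.6%. Summed over exons, cover was 91.4% in control and 88.1% in PTC below 50% GC (24 exons), 80.1% and 74.7% from 50 to under 60% (23 exons), and 25.9% and 25.6% at 60% or more (9 exons). GGACT was densest where cover was lowest, at 1.01, 1.36 and 2.29 sites per kb. The long internal exons of all listed genes followed the same order of cover, with 80.0%, 63.2% and 39.9% in control and 78.9%, 58.7% and 35.8% in PTC, at 1.07, 1.27 and 1.32 sites per kb. The part of GC content in the result was not tested.

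**Figure D5:**
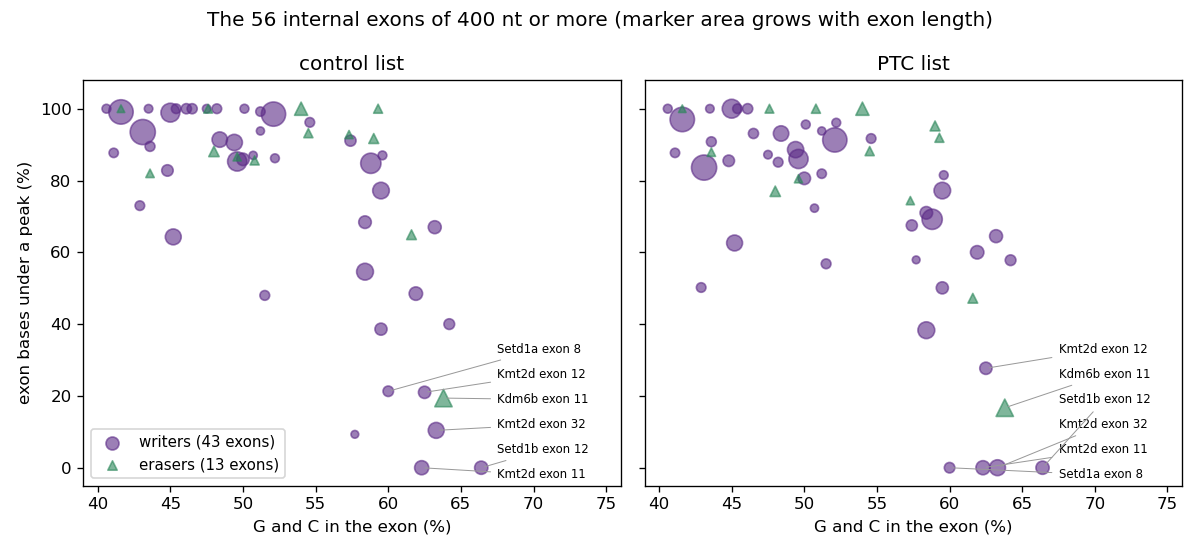
Cover of the 56 long internal exons (y axis, percent of bases under a peak) against their GC content (x axis, percent) in the control and the PTC list, with circles for writers, triangles for erasers, marker area growing with exon length and names on the 6 exons under 50% covered in both lists. Those 6 lie at 60 to 66.4% GC (Setd1a exon 8 just under 60% before rounding), and the exons at least 90% covered in both at up to 59.3%.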

How the data were processed

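The values come from 2 deposited peak lists, 1 per condition. BWA 0.7.12, MACS2 2.1.0 and the build GRCm39 are named, with no role, per the submitters' processing notes. The peak caller, its threshold, the strand setting and any pooling of samples: not given in the sources used here. The fold enrichment is a linear ratio and the log10 FDR a score, both the authors' own deposited values, used only within a list. The highest FDR was 4.27% in control and 4.68% in PTC.

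Peaks were placed on GENCODE M21, which is on GRCm38: 99.8% of each list, and 100% of the peaks described, fell within the annotated gene that carries the list's Ensembl ID. Coordinates are therefore read as GRCm38 and given from 1. Writers and erasers were found by symbol. Cover is the bases of the merged exon blocks; overlap means at least 1 nt shared on the same strand, and the midpoint of the blocks stands for the peak. Main transcripts gave exon positions, sequences and GC content. Paralogous coding sequences were aligned with mafft 7.526. Computation used Python 3.11.15, numpy 2.4.6 and scipy 1.17.1, and the overlap and placement functions were tested on simulated data.

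The members and lists were chosen with earlier results of these data known. Every gene is accounted for. Peak numbers, cover and the highest −log10 FDR were given for genes in 1 list only, genes whose peak numbers differ by 3 or more, genes in both lists with no overlapping pair and, among writers and erasers, the 4 with the highest −log10 FDR and the 4 with the most peaks; other genes named were chosen after their values were seen, as were the analyses by exon position, paralog and GC content. No test was possible with 1 list per condition. One item of the marker lists is not reported here.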

Additional observations from a re-analysis of the deposited data

How the results depend on the processing

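Of 73 alternative values for 19 results, 43 stayed within 1.5 times the reported count or cover, or within a share's 95% interval, and 30 did not; the cause was not tested. Among peaks reaching a −log10 FDR of 5, 2 genes had control peaks alone, writers held 81 PTC peaks, erasers 57 control peaks, 92.1% of PTC peaks were overlapped, 25.4% of PTC windows held GGACT, and short internal exons were 6.13% covered in PTC. With a fold enrichment of at least 4, 3 genes had control peaks alone and 2 had PTC peaks alone, writers held 52 and 48 peaks and erasers 37 and 29, 50.6% of control and 59.7% of PTC peaks were overlapped, 47.2% of control midpoints were coding and 26.0% of PTC windows held GGACT. Cover at that fold was 6.51% and 3.31% in short internal, 44.7% (control) in long internal and 17.0% and 16.6% in last exons. With lists of equal length no gene (0) was in control only and 69.5% of control peaks were overlapped. Overlap was 48.8% and 65.6% with 50% of each peak shared, and 42.5% and 57.1% with midpoints within 100 nt. Windows reaching 100 nt to either side held GGACT in 30.3% and 32.3%. With long exons from 600 nt, short internal exons were 15.4% covered in PTC. Alternatives for exon cover were chosen after seeing the data. Under every alternative run, short internal cover was lower in PTC than in control. Long internal cover was too, except at the fold of 4, where it was higher in PTC in writers and lower in erasers. The order of writers and erasers in peak number was not stable. No paired analysis was possible because the condition lists carry no samples, for which reason no replicate could be left out either.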

Other observations

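Of 15 genes of histone methyltransferases and related proteins found under other names, 12 had peaks in both lists, with 38 control and 33 PTC peaks in all. Of all genes with a peak in either list, 79.2% were in both and 12.5% in control only. Ezh2, the H3K27 methyltransferase of Polycomb complex PRC2, had 4 control and 2 PTC peaks on 870 and 600 nt, and Dot1l, which methylates H3K79, 6 and 5 on 2816 and 1410 nt. Prdm1 (Blimp-1), a transcriptional repressor of effector lymphocytes with a SET-related domain, had 4 and 6 peaks on 3842 and 2315 nt, a rise in number with less cover as in Kmt2a. Smyd1 and Smyd3 were listed in control only, each by 1 peak (−log10 FDR 3.62 and 3.91), and Mecom had no peak. Of 7 further demethylases 6 were in both lists. Jmjd1c, a Jumonji protein related to Kdm3a, had 4 and 6 peaks on 4737 and 4289 nt, Phf8, an H3K9 and H4K20 demethylase, 4 and 1, and Hr had none.

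The partners of the Kmt2 and Setd1 complexes held 43 control and 27 PTC peaks over 12 genes, of which 5 had more control peaks (45.5% of all listed genes did) and none (0) more PTC peaks (20.9%). Cxxc1, the CpG-binding subunit of the Setd1 complexes, was listed in control only, by 5 peaks on 1164 nt with a −log10 FDR of up to 10.5. Genes in control only made up 12.5% of all listed genes. Hcfc1 went from 9 peaks to 4, Men1, the menin subunit of the Kmt2a and Kmt2b complexes, from 4 to 1, and Wdr82 from 6 to 4. Peak numbers were equal in 7 of the 12, among them Ncoa6 (6 and 6 on 3753 and 3934 nt). The core subunits Wdr5, Ash2l and Rbbp5 had 2, 2 and 1 in either list. Their cover was 660, 362 and 1591 nt in control and 391, 362 and 991 nt in PTC. Partners of the H3K9 writers and of LSD1 held 29 and 19 peaks over 10 genes. Trim28, which recruits Setdb1, was in control only with 2 weak peaks (−log10 FDR up to 3.12), Rcor1, the LSD1 corepressor, had 4 and 2 on 2905 and 959 nt, and Cbx3 and Hdac1 had none.

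Peaks of 8 of the 43 genes overlapped a peak assigned to another gene. The share of all listed genes with such peaks is not given here, so whether 8 of 43 is unusual cannot be said. Besides Setd1a and Suv39h1, a Kmt2c peak (−log10 FDR 66.2 in control, 69.3 in PTC) lay across from one of the antisense gene model Gm42585 (60.9 and 70.0). Antisense peaks also faced those of Kmt2e (Srpk2), Kdm2b (Rnf34), Kdm5a (Ccdc77), Kdm6b (Kdm6bos) and Kdm7a (4930599N23Rik), and since the strand setting is not given in the sources used here, the reads of such pairs cannot be told apart.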
